A study of Mus musculus with 9 samples.

Results

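The aminoacyl-tRNA synthetases, the enzymes that join each amino acid to its transfer RNA, were followed across RNA sequencing libraries of mouse gastrocnemius, the large calf muscle. They were taken by symbol from the gene table: protein-coding genes named with 1 amino acid letter followed by ars, with or without a final 1 or 2, and the differently named Eprs, Farsa and Farsb. This gave 37 genes of 55416 identifiers, of which 20 encode the cytosolic enzymes and 17, whose names end in 2, the mitochondrial ones. All 37 were among the 13944 genes that passed the filter on low counts. The 9 libraries formed 3 groups of 3. AET_MET mice ran on a motorized treadmill for 60 minutes a day on 5 days a week over 8 weeks and drank water with metformin at 2 mg/mL. AET mice had the same training without the drug, and SED mice were sedentary and received no drug. Strain, sex, age, feeding state and the time between the last run and collection have no entry in the labels read here. Sedentary mice on metformin were not analysed here, so an effect of the drug on the training response and an effect of the drug alone cannot be told apart.

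Every protein a cell makes depends on charged transfer RNAs, and muscle fibers hold 2 separate sets of these enzymes. The cytosolic set charges transfer RNAs for the ribosomes that translate nuclear messages, and several of its members sit together in the multisynthetase complex. The mitochondrial set is also encoded in the nucleus but is imported to charge the transfer RNAs of the mitochondrial genome, which are used to make a few subunits of the respiratory chain. Kars and Gars are known to serve both places from 1 gene. Genes of the cytosolic set are known targets of ATF4, the transcription factor of the amino acid and stress response.

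Libraries held 15434424 expected counts (AET_MET replicate 1) to 25355877 (AET replicate 3). The 11 markers of the muscle fiber were detected in all libraries, with summed levels of 234719 to 281861 CPM (counts relative to library size, scaled with TMM factors). Of these 11, Acta1, the skeletal actin gene, fell in AET against SED (log2 change -0.37, edgeR adjusted p = 0.0295), and none was called in the other comparisons. Some markers of other cells differed between the groups, and the slow fiber markers varied widely between libraries. Summed fibroblast markers (5 genes) were 568 to 659 CPM in AET_MET, 656 to 739.9 CPM in AET and 892 to 1120.4 CPM in SED, and 2 of the 5 fell in AET against SED and 2 in AET_MET against SED. Summed Schwann cell markers (6 genes) were 24.98 to 56.8 CPM in AET_MET, 65.1 to 113 CPM in AET and 33.1 to 38.3 CPM in SED, with 3 of the 6 called higher in AET against SED. Of 6 endothelial markers Kdr was called higher and Cldn5 lower in AET against SED, and of 5 smooth muscle and pericyte markers Acta2 was called higher. Summed slow fiber markers (7 genes) were 69.2 to 643 CPM in AET_MET, 297 to 1127 CPM in AET and 747 to 915 CPM in SED, with none of the 7 called by edgeR in any comparison. In bulk muscle, fewer cells of a type and less RNA per cell cannot be told apart, and the part of these differences in the results on synthetases was not tested.

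The cytosolic enzymes were the more strongly expressed set. Their levels, as the mean CPM per kilobase of merged exon length over the 9 libraries, had a median of 10.5 (range 2.64 for Farsa to 20.3 for Nars). The median of the mitochondrial genes without Lars2 was 1.98 (0.69 for Wars2 to 6.22 for Iars2), close to the 1.90 of all genes tested. The typical cytosolic gene stood at the 85.8th percentile of all genes per kilobase, and the typical mitochondrial gene without Lars2 at the 50.8th. After Nars, the asparagine enzyme, came Gars (glycine, 16.4), Eprs (the fused glutamate and proline enzyme, 15.7), Kars (lysine, 15.1) and Iars (isoleucine, 12.7). Then followed Farsb (the beta subunit for phenylalanine, 12.05), Sars (serine, 11.7), Dars (aspartate, 11.6), Mars (methionine, 11.1), Aars (alanine, 10.6) and Rars (arginine, 10.5). The lower end held Lars (leucine, 9.39), Hars (histidine, 8.53), Tars (threonine, 7.33), Wars (tryptophan, 6.59), Qars (glutamine, 6.08), Yars (tyrosine, 4.92), Vars (valine, 4.28), Cars (cysteine, 3.88) and Farsa (the alpha subunit for phenylalanine, 2.64), all in CPM per kilobase. Over the 9 libraries, 17 of the 19 neighbours in this order overlapped, the exceptions being Kars above Iars and Cars above Farsa. The value of Eprs depends on a merged exon length of 18102 bp that counts every annotated isoform.

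Among the mitochondrial genes, Lars2 (leucine) stood apart at 50.6 CPM per kilobase and is described on its own further on. Iars2 (isoleucine, 6.22) led the others, followed by Rars2 (arginine, 3.41), Fars2 (phenylalanine, 2.67), Aars2 (alanine, 2.59), Hars2 (histidine, 2.37), Tars2 (threonine, 2.28), Yars2 (tyrosine, 2.21) and Sars2 (serine, 2.12). Vars2 (valine, 1.36), Cars2 (cysteine, 1.05), Ears2 (glutamate, 0.952), Pars2 (proline, 0.94), Mars2 (methionine, 0.858), Nars2 (asparagine, 0.695) and Wars2 (tryptophan, 0.69) were lower still, again in CPM per kilobase. Of the 16 neighbours in the order of all 17 genes 14 overlapped, and Lars2 and Iars2 each stood clear of the next. Levels were steadier within groups than those of the typical gene: the median coefficient of variation within groups was 6.51% for the cytosolic genes and 9.78% for the mitochondrial genes without Lars2, against 12.2% for all genes tested. The genes compared were not matched on level, and the typical cytosolic gene stood at the 85.8th percentile. The steadiest member was Iars2 at 3.04%. Counts behind a mitochondrial gene other than Lars2 were as low as 38 in a library, so small differences of the weakest members were not detectable at this depth.

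**Figure D1:**
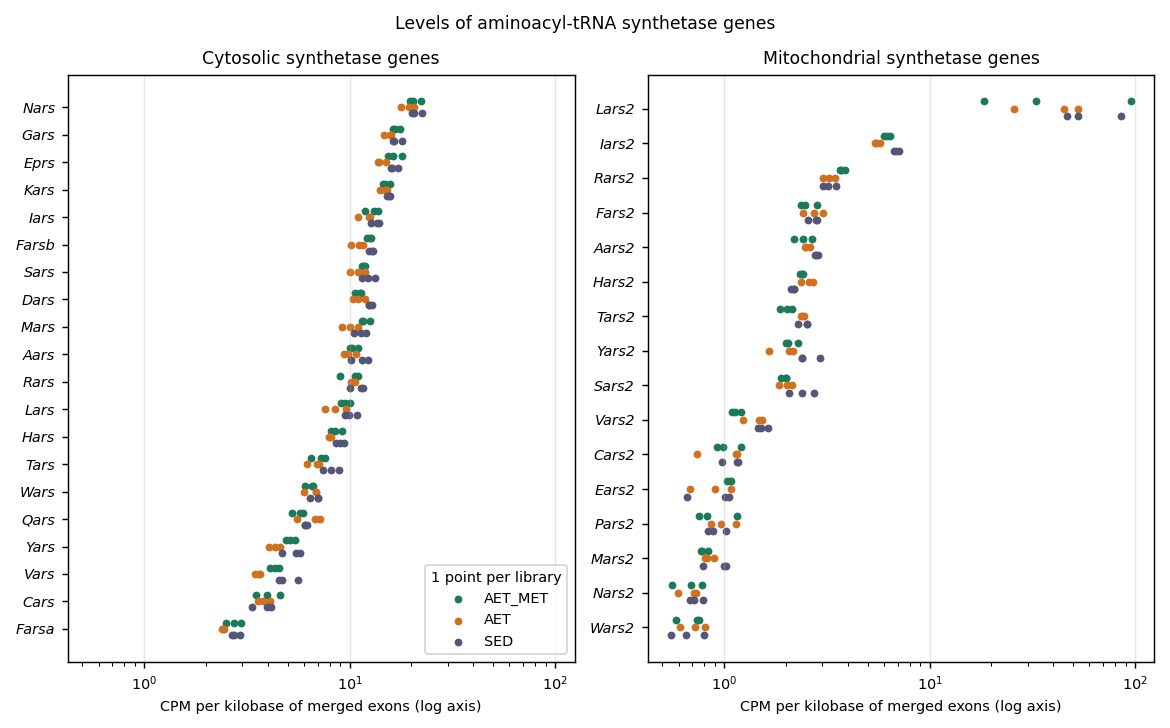
Level of synthetase genes of both sets in CPM per kilobase of merged exons (log axis), with 1 point per library; AET_MET is green, AET orange and SED grey. Cytosolic genes (left) have a median of 10.5 and mitochondrial genes without Lars2 (right) of 1.98, and Lars2 has the widest spread between libraries.

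For 16 amino acids both a cytosolic and a mitochondrial enzyme could be paired (Farsa with Fars2, and Eprs with Ears2). Per kilobase the cytosolic gene was the higher one in 14 of the 16 pairs, with a median ratio of 3.65. The ratio was widest for asparagine, where Nars was 29.2 times Nars2. The exceptions were leucine, where Lars was at 0.186 times Lars2, and phenylalanine, where Farsa was at 0.988 times Fars2. Farsb, the gene of the other cytosolic subunit for phenylalanine, was not paired. It stood at 12.05 CPM per kilobase, beside 2.67 for Fars2, so phenylalanine was an exception only with Farsa as the subunit taken. Per kilobase of coding length the cytosolic gene was the higher one in 13 pairs, and the ratio of Iars to Iars2 was then 0.975. By that length the widest ratio was that of Eprs to Ears2, at 20.1, and Nars was at 15.6 times Nars2. Over the 16 ratios, the libraries did not overlap in 1 that was higher and 2 that were lower in AET against SED, in 0 and 3 in AET_MET against SED, and in 4 and 1 in AET_MET against AET. In the same order, the shares of all single genes without overlap were 16.4% and 16.3%, 13.4% and 13.4%, and 14.7% and 13.2%. A share over ratios of other gene pairs was not taken. Histidine was apart in all 3 comparisons, with a log2 ratio of Hars to Hars2 per kilobase of 1.85 ± 0.08 in AET_MET, 1.66 ± 0.09 in AET and 2.05 ± 0.05 in SED (mean ± SD, n = 3), for genes whose annotated ends overlap. For valine, the log2 ratio of Vars to Vars2 per kilobase was 1.91 ± 0.13 in AET_MET, 1.35 ± 0.19 in AET and 1.68 ± 0.24 in SED. The AET_MET and AET libraries did not overlap, and both overlapped with SED. For threonine the log2 ratio of Tars to Tars2 was 1.82 ± 0.13 in AET_MET, 1.49 ± 0.09 in AET and 1.74 ± 0.15 in SED, again with AET_MET and AET apart and with AET below every SED library. These 3 pairs were chosen after their values were seen, and an exact permutation test of 3 against 3 libraries cannot give a two-sided p below 0.1.

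Training alone was compared with the sedentary state first, which asks how the transcripts of the charging enzymes stand after 8 weeks of running. The cytosolic genes leaned lower in AET, by small amounts, and 1 of them passed the test. Of the 20 genes, 18 had a log2 change below 0 in AET against SED, where 51.4% of all genes tested were above 0. Their median log2 change was -0.17 (range -0.46 to 0.09), beside 0.01 for all genes. In 10 of the 20 every AET library was below every SED library, against 16.3% of all genes tested, and in none was it the other way round. Vars fell and no cytosolic gene rose (edgeR quasi-likelihood test, Benjamini-Hochberg adjusted p under 0.05), while 12.3% of all genes were called, 5.82% as higher and 6.45% as lower. At an unadjusted p under 0.05, 7 of the 20 were lower and 0 higher, against 14.2% and 14.3% of all genes.

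Vars, which charges valine transfer RNA, had 20.6, 20.3 and 19.49 CPM in AET, against 26.2, 31.5 and 25.3 CPM in SED. The AET libraries lay closely together and below all SED libraries, of which replicate 2 was the highest. The log2 change was -0.46 ± 0.09 (SE; a fold of 0.727; edgeR adjusted p = 0.00752). It was called in each of the 9 fits that left out 1 library, with log2 changes of -0.52 to -0.36 and edgeR adjusted p-values of 0.00967 to 0.0356. Vars is a protein-coding gene on the plus strand of chromosome 17 of GRCm38, at 35000987 to 35016322, and the annotation places no other gene on it.

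The next cytosolic genes by p did not pass. Yars, the tyrosine enzyme, had 24.0, 27.3 and 25.7 CPM in AET, against 27.7, 32.6 and 34.0 CPM in SED. The groups did not overlap, and the nearest libraries were AET replicate 2 and SED replicate 1. The log2 change of -0.29 ± 0.09 did not pass (edgeR adjusted p = 0.0519), and it was called when SED replicate 1 was left out (edgeR adjusted p = 0.0261) and in 2 of 9 other alternatives. Tars, the threonine enzyme, had a log2 change of -0.28 ± 0.09 (edgeR adjusted p = 0.0575). Farsb, a subunit of the phenylalanine enzyme, had a log2 change of -0.22 ± 0.07 (edgeR adjusted p = 0.0689). Besides Vars, Yars, Tars and Farsb, the groups of Dars, Eprs, Farsa, Gars, Hars and Iars also did not overlap, with AET lower and log2 changes of -0.21 to -0.13. Lars had a log2 change of -0.24 with overlapping libraries, and Aars, Kars, Mars, Nars, Rars, Sars and Wars lay between -0.18 and -0.06. The cytosolic genes not below 0 were Qars, at 0.09 ± 0.09, and Cars, at 0.00 ± 0.11.

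The cytosolic genes were also read by membership of the multisynthetase complex, with no test of a difference. The 8 synthetases of the complex (Eprs, Iars, Lars, Qars, Mars, Kars, Rars and Dars) had a median log2 change of -0.16 in AET against SED, and the 12 outside it had -0.17. The groups did not overlap, with AET lower, in 3 of the 8 and in 7 of the 12, against 16.3% of all genes tested. The 1 gene called (Vars) was outside the complex, where 6.45% of all genes were called lower. The 3 genes of the scaffold proteins that hold the complex together, Aimp1, Aimp2 and Eef1e1, had log2 changes of -0.10, -0.28 and -0.07. None was called by edgeR, and 1 of them (Aimp2) was at an unadjusted p under 0.05, against 14.2% of all genes as lower. By library, the median log2 deviation of the 20 cytosolic genes from their 9-library means was -0.14, -0.11 and -0.01 in AET, against 0.02, 0.08 and 0.10 in SED. AET replicate 3 lay closest to the sedentary libraries, and the groups did not overlap.

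**Figure D2:**
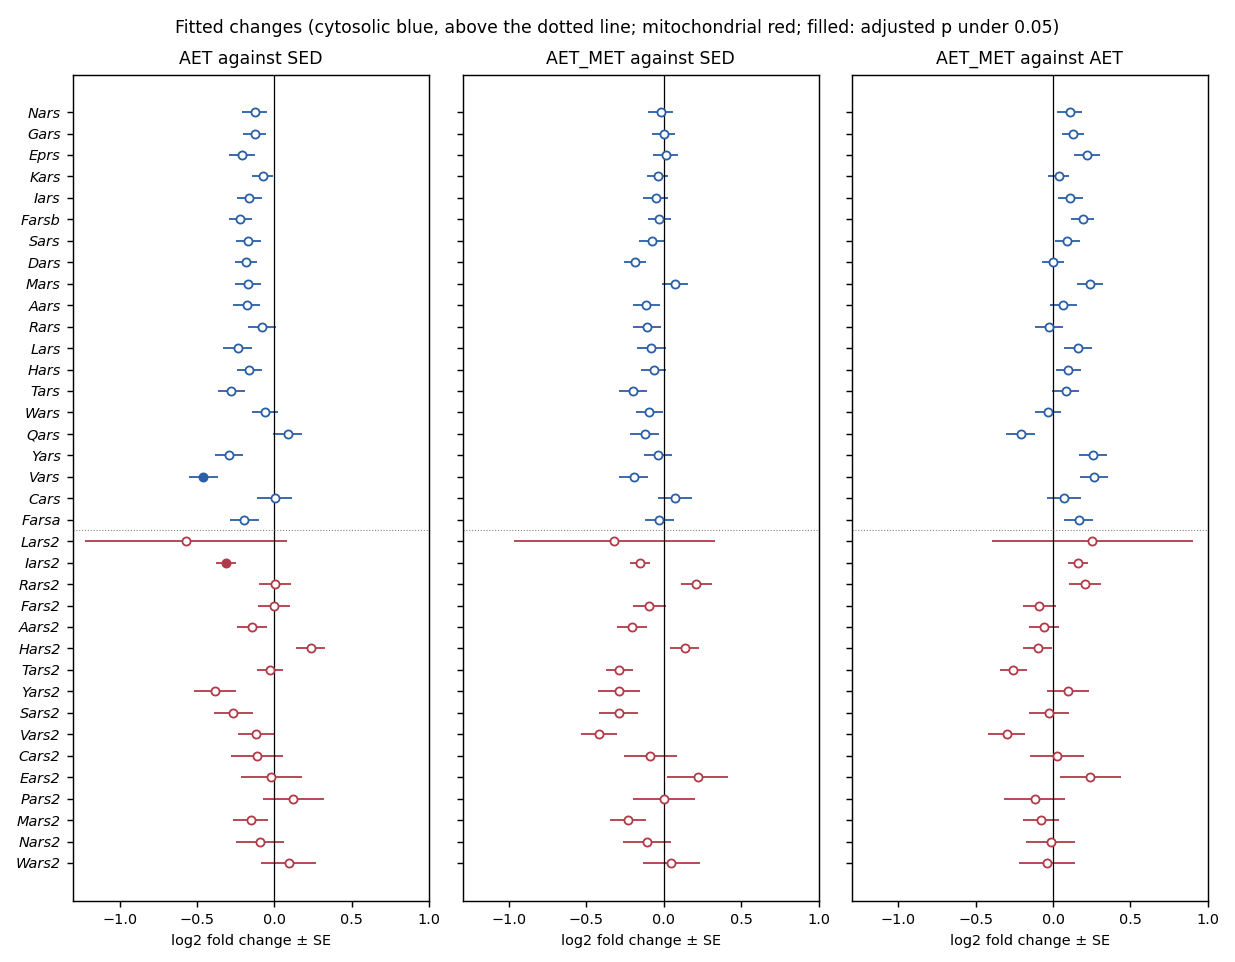
Fitted log2 fold change ± SE of synthetase genes of both sets in the 3 comparisons (AET against SED, AET_MET against SED, AET_MET against AET), with cytosolic genes in blue above the dotted line, mitochondrial genes in red below it, and filled points for adjusted p under 0.05. Filled points are Vars and Iars2, both in AET against SED; 18 of 20 cytosolic estimates lie below 0 there and 16 of 20 above 0 in AET_MET against AET.

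In trained mice that also received metformin, the mean of 13 of the 20 cytosolic genes (65.0%) and of 7 of the 17 mitochondrial genes (41.2%) lay between the AET and SED means, against 40.0% of all genes tested. In AET_MET against SED none of the 20 was called by edgeR or by DESeq2, where edgeR called 4.59% of all genes (2.17% higher, 2.42% lower). At an unadjusted p under 0.05, 2 of the 20 were lower and 0 higher, against 10.4% and 10.2% of all genes. The median log2 change was -0.06, with 17 of 20 estimates below 0, where 50.5% of all genes were above 0. Scaling libraries by their totals alone gave 0.04 and moved the median of all genes by 0.10, so relative to all genes the cytosolic median was -0.06 under both scalings. Dars, the aspartate enzyme, had the smallest p of the cytosolic genes in this comparison. It had 46.5, 49.2 and 49.1 CPM in AET_MET, 45.2, 47.7 and 52.0 CPM in AET and 56.0, 54.4 and 54.4 CPM in SED. All trained libraries, with and without the drug, were below all sedentary ones. Its log2 change was -0.18 ± 0.07 in both AET_MET against SED (edgeR adjusted p = 0.165) and AET against SED (edgeR adjusted p = 0.111). The AET_MET and SED groups did not overlap in 2 of the 20 genes (Dars and Qars, both lower in AET_MET), against 13.4% of all genes in that direction.

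Against AET, the cytosolic genes leaned higher in AET_MET, with no call. The median log2 change of the 20 was 0.10, beside 0.00 for all genes, and 16 of 20 estimates were above 0, against 50.1% of all genes. None was called by edgeR or DESeq2 (edgeR called 3.43% of all genes, 1.66% higher and 1.77% lower), and 5 were higher and 1 lower at an unadjusted p under 0.05, against 10.8% and 10.6% of all genes. In 7 of the 20 (Eprs, Farsa, Farsb, Gars, Mars, Vars and Yars) all AET_MET libraries were above all AET libraries, against 14.7% of all genes. The comparison shares its AET libraries with that of AET against SED, so the opposite leanings of the 2 are not independent of each other. Mars, the methionine enzyme, had 39.6, 39.3 and 43.1 CPM in AET_MET, 34.3, 31.5 and 37.5 CPM in AET and 36.1, 40.9 and 39.1 CPM in SED. AET_MET overlapped with SED and lay above AET, with a log2 change of 0.24 ± 0.08 against AET (edgeR adjusted p = 0.122). It was called only with libraries scaled by their totals alone (edgeR adjusted p = 0.0447). The annotated gene overlaps Ddit3, on the opposite strand, by 68 bp.

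Vars had 24.2, 23.0 and 25.3 CPM in AET_MET, which lay above every AET library and passed the lowest SED library only in AET_MET replicate 3, at almost the same level. Its log2 change was 0.26 ± 0.09 in AET_MET against AET (edgeR adjusted p = 0.122) and -0.20 ± 0.09 in AET_MET against SED (edgeR adjusted p = 0.252). In AET_MET Yars had 30.6, 29.2 and 32.1 CPM, within the range of SED, at a log2 change of 0.26 ± 0.09 against AET (edgeR adjusted p = 0.125). Qars, the glutamine enzyme, had the opposite sign, at 34.3, 38.8 and 37.6 CPM in AET_MET and 47.3, 36.3 and 44.5 CPM in AET, with overlap and a log2 change of -0.21 ± 0.09 (edgeR adjusted p = 0.222). The largest cytosolic transcript, Eprs, had 277, 294 and 327 CPM in AET_MET, 251, 249.5 and 271 CPM in AET and 291, 288 and 313 CPM in SED. Its AET_MET libraries overlapped with SED and not with AET.

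**Figure D3:**
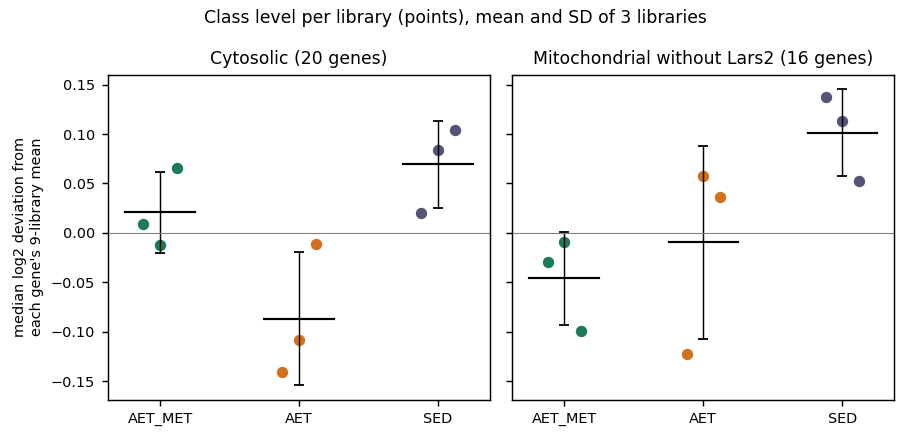
Median log2 deviation of the 20 cytosolic genes (left) and the 16 mitochondrial genes without Lars2 (right) from each gene's mean over 9 libraries; points are libraries, bars the mean and SD of 3 libraries per group (AET_MET, AET, SED). The cytosolic medians are -0.01 to 0.07 in AET_MET, -0.14 to -0.01 in AET and 0.02 to 0.10 in SED; the mitochondrial ones are -0.10 to -0.01, -0.12 to 0.06 and 0.05 to 0.14.

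Sequence around the start sites was searched for letters of known elements, as a description only. RefSeq windows of GRCm38.p6, 250 bases before to 50 after the start, were matched for 27 of the 37 genes (13 cytosolic, 14 mitochondrial). Cars, Hars, Lars, Nars, Rars, Vars, Wars, Hars2 and Pars2 were among those not matched. TGATGNAA, the composite element bound by ATF4 with C/EBP partners, stood on either strand in 5 of the 13 cytosolic windows (Aars, Gars, Iars, Tars and Yars) and in 0 of the 14 mitochondrial ones, against 3.97% of all 32851 windows. GCGC, any base, then TGCGC, the core of the element of NRF1, a regulator of nuclear genes for mitochondria, stood in 3 of 13 (Farsb, Kars and Tars) and 2 of 14 (Iars2 and Mars2), against 4.60% of all windows. CCGGAAG, an ETS-type element, stood in 5 of 13 (Farsa, Gars, Kars, Mars and Sars) and 4 of 14 (Cars2, Mars2, Rars2 and Sars2), against 8.86% of all windows. The 5 stretches with TGATGNAA follow, to show where the element stands, and Iars2 is added as the mitochondrial gene that fell. Each runs 5′ to 3′ over 130 bases before and 20 after the start on the strand of the gene, and capitals mark TGATGNAA on either strand (the NRF1-type letters in Iars2).
Aars (chr8:111033712-111033861, plus strand): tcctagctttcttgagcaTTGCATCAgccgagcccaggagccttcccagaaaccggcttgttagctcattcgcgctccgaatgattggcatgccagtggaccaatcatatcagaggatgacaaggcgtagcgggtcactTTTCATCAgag
Gars (chr6:55037871-55038020, plus strand): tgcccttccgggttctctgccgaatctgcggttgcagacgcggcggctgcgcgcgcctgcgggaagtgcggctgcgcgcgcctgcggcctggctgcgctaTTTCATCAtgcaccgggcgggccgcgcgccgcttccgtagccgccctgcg
Iars (chr13:49682000-49682149, plus strand): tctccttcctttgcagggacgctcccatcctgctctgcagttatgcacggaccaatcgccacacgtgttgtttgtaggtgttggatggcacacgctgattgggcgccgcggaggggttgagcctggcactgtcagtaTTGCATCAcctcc
Tars (chr15:11399639-11399788, minus strand): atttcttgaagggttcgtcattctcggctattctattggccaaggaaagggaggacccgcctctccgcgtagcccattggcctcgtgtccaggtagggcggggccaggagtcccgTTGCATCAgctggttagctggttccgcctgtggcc
Yars (chr4:129189773-129189922, plus strand): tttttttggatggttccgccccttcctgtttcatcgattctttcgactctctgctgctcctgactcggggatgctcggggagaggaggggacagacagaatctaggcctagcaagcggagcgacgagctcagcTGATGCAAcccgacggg
Iars2 (chr1:185329382-185329531, minus strand): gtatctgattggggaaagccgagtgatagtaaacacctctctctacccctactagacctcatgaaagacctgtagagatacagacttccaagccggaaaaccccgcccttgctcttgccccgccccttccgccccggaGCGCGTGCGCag

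The 5 genes with TGATGNAA had log2 changes of -0.18 (Aars), -0.13 (Gars), -0.16 (Iars), -0.28 (Tars) and -0.29 (Yars) in AET against SED, none called by edgeR. In AET_MET against AET they had 0.07, 0.13, 0.11, 0.08 and 0.26 in the same order. The other cytosolic genes with a window lacked the element. They had -0.18 (Dars), -0.21 (Eprs), -0.19 (Farsa), -0.22 (Farsb), -0.08 (Kars), -0.17 (Mars), 0.09 (Qars) and -0.17 (Sars) in AET against SED. Their AET_MET against AET values were -0.0002, 0.22, 0.17, 0.19, 0.04, 0.24, -0.21 and 0.09 in the same order. Vars, the cytosolic gene called, had no window. A link of the element to these changes was not tested. Other genes of the ATF4 response were read beside the synthetases. Of 28 listed genes of this response, with Atf4 itself among them, 24 were tested. In AET against SED 6 of the 24 fell and 0 rose, against 6.45% and 5.82% of all genes. The median log2 change of the 24 was -0.23, beside 0.01 for all genes. The list was put together with earlier results of these data known. Atf4 itself was at 83.5 ± 5.38 CPM in AET and 129.9 ± 14.3 CPM in SED (SD, n = 3), and fell by 0.64 ± 0.09 on the log2 scale (edgeR adjusted p = 0.00104). The gene Eif4ebp1, a repressor of translation initiation, averaged 33.7 ± 0.118 CPM in AET_MET, 18.4 ± 1.17 CPM in AET and 47.7 ± 5.26 CPM in SED, and fell by 1.38 on the log2 scale in AET against SED (edgeR adjusted p = 1.29e-05). Cebpb, a transcription factor that pairs with ATF4, averaged 14.9 ± 0.89 CPM in AET_MET, 9.55 ± 1.84 CPM in AET and 28.1 ± 4.72 CPM in SED. Its log2 change was -1.55 ± 0.15 in AET against SED (edgeR adjusted p = 0.000153). Ppp1r15a, which restarts translation after stress, had a log2 change of -1.36 ± 0.16 there (edgeR adjusted p = 0.000976). Cth and Sesn2 were the other 2 that fell.

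In AET_MET against SED 4 of the 24 genes of the ATF4 list fell (Cebpb, Eif4ebp1, Ppp1r15a and Cth) and none rose. Over all genes, 2.42% were called lower and 2.17% higher. The median of the 24 was -0.13, beside 0.00 for all genes. In AET_MET against AET 2 rose, Eif4ebp1 (log2 change 0.87 ± 0.09, edgeR adjusted p = 0.00172) and Cebpb (0.63 ± 0.15, edgeR adjusted p = 0.0430), none fell, and the median was 0.21. Of all genes, 1.66% were called higher and 1.77% lower there, with a median of 0.00. Atf4 had a log2 change of 0.35 ± 0.09 in that comparison (edgeR adjusted p = 0.0556). The cytosolic elongation factors, which deliver charged transfer RNAs to the ribosome, had no call by edgeR among 7 genes in any comparison, with medians of -0.04 (AET against SED), -0.05 (AET_MET against SED) and 0.03 (AET_MET against AET).

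Of the mitochondrial synthetases, in AET against SED 1 of 17 fell and 0 rose by edgeR, where 6.45% of all genes were called lower and 5.82% higher, and a difference from the cytosolic set was not tested. The log2 change was below 0 in 13 of the 17, with a median of -0.11 (0.01 for all genes). The groups did not overlap in 3 that were lower (Aars2, Iars2 and Yars2) and 1 that was higher (Hars2), against 16.3% and 16.4% of all genes. Iars2, the mitochondrial isoleucine enzyme, had 48.6, 48.3 and 51.2 CPM in AET, against 60.8, 63.1 and 59.9 CPM in SED, with a wide gap between the groups. It fell by 0.31 ± 0.07 on the log2 scale (edgeR adjusted p = 0.00997), and it was called in each of the 9 fits that left out 1 library (edgeR adjusted p 0.0142 to 0.0406). In AET_MET it had 55.1, 57.0 and 53.4 CPM, between the other groups and overlapping with neither. The log2 change was -0.15 ± 0.07 in AET_MET against SED (edgeR adjusted p = 0.212) and 0.16 ± 0.07 in AET_MET against AET (edgeR adjusted p = 0.184).

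Iars2 lies on the minus strand of chromosome 1, at 185284726 to 185329396 of GRCm38, and 2034 bp of its transcript are shared with Rab3gap2 on the opposite strand. Rab3gap2 averaged 30.3 CPM in AET_MET, 26.3 CPM in AET and 26.2 CPM in SED, and its log2 change in AET against SED was 0.00 ± 0.08 (edgeR adjusted p = 0.977). The strand setting is unknown here, so reads of the shared stretch cannot be told apart. Yars2, the mitochondrial tyrosine enzyme, had 5.20, 6.55 and 6.81 CPM in AET, against 7.55, 9.195 and 7.52 CPM in SED, without overlap. Its log2 change of -0.38 ± 0.14 did not pass (edgeR adjusted p = 0.0826). Hars2, for histidine, had 10.1, 11.6 and 11.02 CPM in AET, against 9.396, 9.37 and 9.08 CPM in SED, with a log2 change of 0.23 ± 0.09 (edgeR adjusted p = 0.123). The annotated genes of Hars2 and Hars overlap by 198 bp on opposite strands, and their estimates had opposite signs. Leaving out AET replicate 1 moved the median of the 17 to -0.03.

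With metformin, the mitochondrial genes with the smallest p values were Vars2 and Tars2, the valine and threonine enzymes. None of the 17 was called by edgeR or DESeq2 in AET_MET against SED, with 4 lower and 0 higher at an unadjusted p under 0.05 (10.4% and 10.2% of all genes). The groups did not overlap in 6 that were lower (Aars2, Iars2, Sars2, Tars2, Vars2 and Yars2) and 2 that were higher (Hars2 and Rars2), against 13.4% of all genes in each direction. The median log2 change was -0.11 (-0.01 with libraries scaled by their totals alone), and relative to all genes it was -0.11 under both scalings. Vars2 had 5.98, 6.62 and 6.19 CPM in AET_MET, 6.72, 8.31 and 8.10 CPM in AET and 8.22, 8.01 and 8.93 CPM in SED. AET_MET was below every library of the other groups, with AET replicate 1 nearest. The log2 change was -0.42 ± 0.12 against SED (edgeR adjusted p = 0.0644), called only when AET replicate 1 was left out (edgeR adjusted p = 0.0464), and -0.30 ± 0.12 against AET (edgeR adjusted p = 0.163).

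Tars2 had 14.0, 13.0 and 14.8 CPM in AET_MET, 16.9, 16.5 and 16.6 CPM in AET and 17.5, 17.5 and 15.9 CPM in SED. Here too AET_MET was below all 6 other libraries, and AET and SED overlapped. Its log2 change was -0.29 ± 0.09 against SED (edgeR adjusted p = 0.0837) and -0.26 ± 0.09 against AET (edgeR adjusted p = 0.113). Rars2, the arginine enzyme, was above all 6 other libraries at 10.1, 10.7 and 10.3 CPM in AET_MET, beside 9.58, 8.97 and 8.43 CPM in AET and 8.36, 9.68 and 8.83 CPM in SED. The change was 0.21 ± 0.10 on the log2 scale against both SED (edgeR adjusted p = 0.264) and AET (edgeR adjusted p = 0.261). In AET_MET against AET none of the 17 was called by edgeR or DESeq2. At an unadjusted p under 0.05, 1 was higher (Iars2) and 2 lower (Tars2 and Vars2), against 10.8% and 10.6% of all genes. The median log2 change was -0.03 (0.06 with libraries scaled by their totals alone, where all genes shifted by 0.089 at the median), and relative to all genes it was -0.03 under both scalings. Groups did not overlap in 2 of the 17 in each direction, against 14.7% of all genes as higher and 13.2% as lower.

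**Figure D4:**
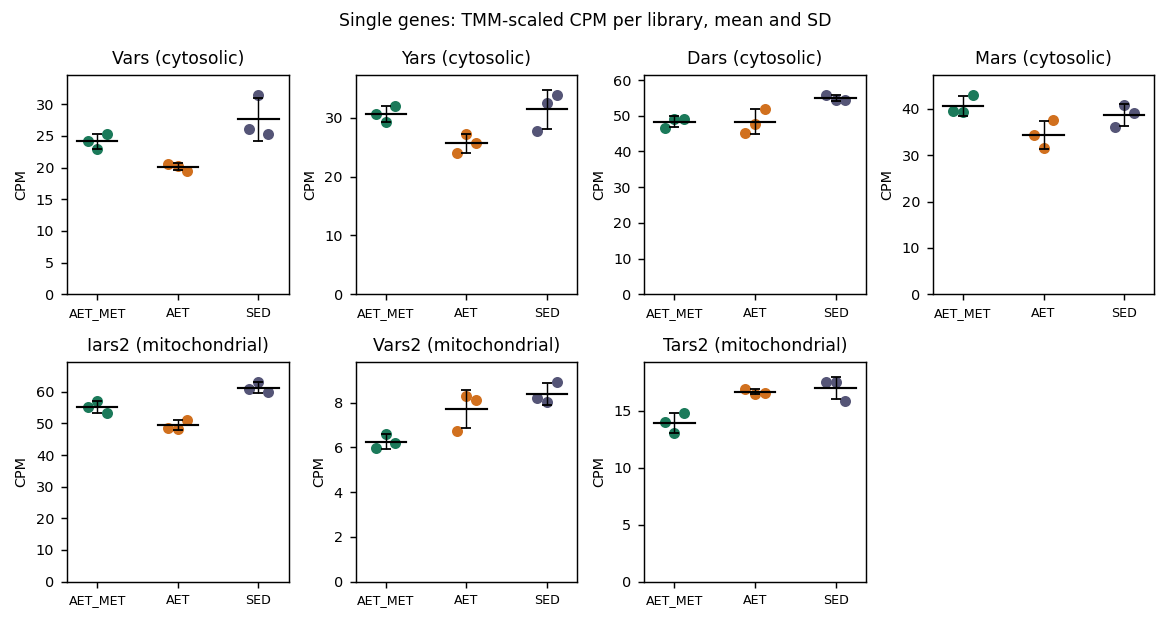
TMM-scaled CPM of the 7 members with a call or with 1 of the 3 smallest p values in a comparison; points are libraries, lines the mean and SD of 3 libraries per group (AET_MET, AET, SED), and the axes start at 0. Vars, Yars and Iars2 are lowest in AET, whereas Vars2 and Tars2 are lowest in AET_MET, at 5.98 to 6.62 and 13.0 to 14.8 CPM.

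Other genes of mitochondrial translation were read beside them. Tufm, the elongation factor that brings charged transfer RNA to the mitochondrial ribosome, averaged 51.1 ± 3.07 CPM in AET_MET, 67.9 ± 8.56 CPM in AET and 65.5 ± 2.33 CPM in SED (SD, n = 3). It fell in AET_MET against SED (log2 change -0.36 ± 0.09, edgeR adjusted p = 0.0425) and against AET (-0.41 ± 0.09, edgeR adjusted p = 0.0310). Gfm1, the translocase of the mitochondrial ribosome, averaged 76.3 ± 2.72 CPM in AET_MET, 89.9 ± 5.68 CPM in AET and 93.3 ± 1.91 CPM in SED, and fell against SED (-0.29 ± 0.07, edgeR adjusted p = 0.0373). Of the 10 mitochondrial elongation and release genes, these 2 fell in AET_MET against SED, Tufm fell in AET_MET against AET, and Mtrf1l, a release factor, rose in AET against SED (0.54 ± 0.15, edgeR adjusted p = 0.0371). Over all genes, 2.42% were called lower in AET_MET against SED, 1.77% lower in AET_MET against AET and 5.82% higher in AET against SED. No mitochondrial glutaminyl-tRNA synthetase is among the members, and glutamine transfer RNA of the organelle is instead charged with glutamate and then converted by an amidotransferase of 3 subunits. Of these Gatb averaged 9.06 ± 0.869 CPM in AET_MET, 11.8 ± 0.491 CPM in AET and 12.8 ± 0.915 CPM in SED, and fell in AET_MET against SED (-0.50 ± 0.10, edgeR adjusted p = 0.0187), with no other call in the 3 genes.

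Of 15 genes of mitochondrial transfer RNA processing and translation activation, Elac2 (log2 change -0.30 ± 0.09, edgeR adjusted p = 0.0375) and Trmt10c (-0.37 ± 0.10, edgeR adjusted p = 0.0344) fell in AET against SED. Both cut the ends of mitochondrial transfer RNAs out of the primary transcript, Trmt10c as a subunit of the 5′ end nuclease and Elac2 as the 3′ end nuclease. In AET_MET against SED Taco1, a translation activator, fell (-0.35 ± 0.09, edgeR adjusted p = 0.0448). Of 11 regulators of mitochondrial biogenesis, the coactivator genes Ppargc1a (0.58 ± 0.13, edgeR adjusted p = 0.0127) and Ppargc1b (0.96 ± 0.16, edgeR adjusted p = 0.00319) rose in AET against SED. In the same comparison Polrmt, the mitochondrial RNA polymerase, fell (-0.29 ± 0.08, edgeR adjusted p = 0.0379), and Ppargc1b also rose in AET_MET against SED (0.67 ± 0.17, edgeR adjusted p = 0.0397). The shares called over all genes were 6.45% lower and 5.82% higher in AET against SED. They were 2.42% and 2.17% in AET_MET against SED. None of the 5 synthetase relatives outside the rule was called by edgeR in any comparison.

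Lars2, named for the mitochondrial leucine enzyme, had a level unlike that of any other member. It had 1066, 204 and 368 CPM in AET_MET, 503, 583 and 286 CPM in AET and 583, 516 and 944 CPM in SED. The highest and the lowest of the 9 libraries were both in AET_MET and differed 5.23-fold, and the groups overlapped in every comparison. Its coefficient of variation within groups was 55.0%, against 3.04% to 18.0% for the other mitochondrial genes. It took 36.0% to 75.3% of the summed per-kilobase level of the mitochondrial set, so that sum mostly reflects Lars2. The log2 changes were -0.57 ± 0.65 (AET against SED), -0.32 ± 0.65 (AET_MET against SED) and 0.25 ± 0.65 (AET_MET against AET), none called by edgeR. Without Lars2 the summed mitochondrial level was 31.4, 32.6 and 30.7 CPM per kilobase in AET_MET, 29.4, 32.4 and 31.9 in AET and 34.1, 34.7 and 33.0 in SED, with all trained libraries below all sedentary ones. The sum gives most weight to the strongest genes. The median log2 deviation of the same genes overlapped between AET and SED, at 0.057 in AET replicate 2 and 0.052 in SED replicate 3. The cytosolic sums were 199, 199 and 212 in AET_MET, 184, 185 and 199 in AET and 205, 213 and 216 in SED.

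An identifier that the annotation used here could not name, ENSMUSG00000119584, was read beside Lars2, chosen after its values were seen. It was at 17.6, 17.5 and 17.4 times the CPM of Lars2 in AET_MET and at 17.1, 17.6 and 19.9 times in SED, although Lars2 itself varied 5.23-fold over these libraries. In AET the ratios were 63.7, 20.8 and 79.0. In AET replicates 1 and 3, the identifier was thus high without a matching level of Lars2. Whether the 2 features share reads was not tested.

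**Figure D5:**
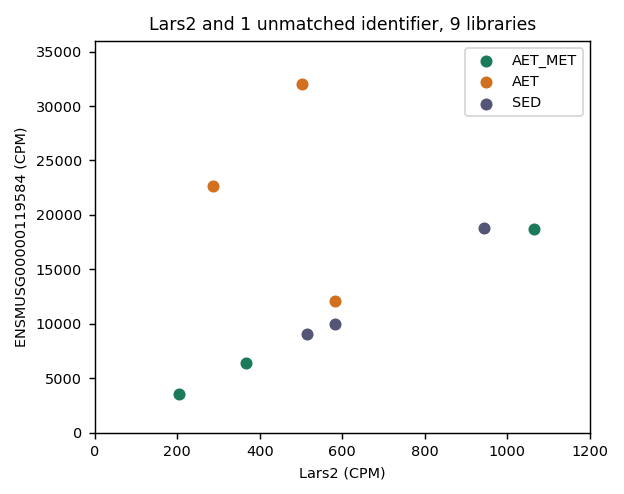
CPM of Lars2 (x axis) and of the unmatched identifier ENSMUSG00000119584 (y axis) in each of the 9 libraries, coloured by group (AET_MET, AET, SED). The 3 AET_MET and 3 SED libraries lie near a line of about the same ratio, 17.1 to 19.9, and AET replicates 1 and 3 lie above it.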

How the data were processed

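RNA was extracted with a Qiagen RNeasy kit and libraries were made with the SMARTER mRNA-Seq kit, per the labels' protocols. Expected counts from RSEM, 1 value per gene and library, were deposited by the authors. The tools named are STAR 2.5.3a, RSEM 1.3.0 and edgeR 3.34.0, with build GRCm38, per the submitters' processing notes. Annotation release, filters and strand setting were not given in the sources used here. RSEM divides reads between overlapping genes and near-copies, and reads of opposite strands cannot be told apart. Of the columns, 0 could not be mapped to a sample.

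Symbols, exon lengths and coordinates come from GENCODE M21 of GRCm38. Unmatched identifiers took 2.69% to 5.68% of a library. Expected counts were rounded to whole numbers and tested with edgeR 4.0.16 in R 4.3.3 (TMM, filterByExpr, robust quasi-likelihood fit of all 9 libraries, 6 residual degrees of freedom). Calls needed an adjusted p (Benjamini-Hochberg, over the 13944 genes tested) under 0.05. The common biological coefficient of variation was 0.134. DESeq2 1.42.0, other scalings and filters, a replicate block and leaving out each library were alternatives, and the pipeline was tested on simulated data. In that simulation of AET against SED, 19% of genes changed by 0.5 on the log2 scale were recovered, and 75% of those changed by 1. Small changes can thus go without a call. Levels are TMM-scaled CPM, divided by merged exon length to compare genes.

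Full values are given for members called in a comparison or among its 3 smallest p values, and for others chosen after their values were seen. Some results are not reported here. Context genes are given by counts, with values for those called (at most 4 per list). The members and lists were chosen with earlier results of these data known.

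Within groups, log2 CPM correlated at 0.975 to 0.986 between libraries, and counts differed by more than sampling noise (16.2 or more in chi-square over its degrees of freedom), so none was merged. Whether the 3 samples of a group are separate mice is not stated in the labels, and p-values cover only their spread, which may be technical. The stem of the library names is the same throughout a group, so a batch following it and the group cannot be told apart.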

Additional observations from a re-analysis of the deposited data

How the results depend on the processing

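Vars and Iars2 stayed called and lower in AET against SED under all 9 settings tried and all 9 fits without 1 library. The number of cytosolic genes called there was 1, and it was 2 with DESeq2 size factors and 3 without a low-count filter. Leaving out 1 library gave 1 to 2. Yars, with DESeq2 size factors, had a log2 change of -0.29 and passed. In AET_MET against AET it was 0 of 20, and 2 with libraries scaled by their totals alone, Mars among them (0.33). For the mitochondrial genes in AET_MET against SED, leaving out 1 library gave 0 to 1 called, Vars2 without AET replicate 1. Scaling by totals alone moved the median log2 change in AET_MET against SED to 0.041 (cytosolic) and -0.0088 (mitochondrial), and in AET_MET against AET to 0.19 and 0.061. It moved the median of all genes by 0.10 and 0.089, so relative to all genes these 4 medians were -0.06, -0.11, 0.10 and -0.03 under both scalings. Leaving out 1 library gave mitochondrial medians of -0.16 to -0.034 (AET against SED), -0.19 to -0.070 (AET_MET against SED) and -0.076 to 0.022 (AET_MET against AET). The count of pairs led by the cytosolic gene was 13 with coding length, an alternative added after seeing the data.

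Same-numbered libraries deviated together little (correlations of -0.05 to 0.18 over 9 pairs, 4 of the 9 closest by own number), so the numbers are not taken as pairs. In AET against SED every replicate was closest to its own number, at correlations of 0.08, 0.03 and 0.11. Only replicate 1 was in AET_MET against SED, and none was in AET_MET against AET. With a replicate block the counts of called synthetase genes were 1 and 1 (cytosolic and mitochondrial) in AET against SED and 0 in the other comparisons, and over all genes 1530, 535 and 358 were called, beside 1712, 640 and 478 without it (AET against SED, AET_MET against SED, AET_MET against AET).

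Over all genes, the 478 calls of AET_MET against AET became 764 with libraries scaled by their totals alone, 731 without a filter, 876 with DESeq2 and 23 (without AET_MET replicate 3) to 461 in fits that left out 1 library. Those of AET against SED ran from 934 to 1509 and those of AET_MET against SED from 141 to 655 in such fits.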
